A study of Caenorhabditis elegans with 2 samples.

Results

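Of 2005 thresholded peaks of FKH-10 ChIP-seq (chromatin immunoprecipitation with sequencing), 319 lay on the X chromosome more than 1 kb from the annotated 5′ end of every protein-coding gene. They were chosen by chromosome and by the position of the summit, the base the authors' peak caller gave as the centre of a peak. A further 140 peaks on X had a gene start within 1 kb, and on the 5 autosomes 836 peaks lay far from gene starts and 710 near one. The animals were whole third-stage (L3) larvae of *Caenorhabditis elegans* strain OP337, of mixed sex, with the mutation unc-119(ed3) and the integrated transgene wgIs377. That transgene carries fkh-10 fused to TY1, EGFP and FLAG together with a copy of unc-119, so the profiled protein is a tagged copy made in addition to any product of the animals' own gene. Chromatin was sheared by sonication, and the antibody is labelled as fkh-10. All libraries (2, labelled as biological replicates 1 and 2) formed 1 group with no second condition. Comparisons are therefore between groups of peaks, which are not replicates of a condition, and the depth of the libraries is unknown.

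Forkhead factors bind DNA through a winged helix domain, many of them at sites with the core RTAAAYA, in which R stands for either purine and Y for either pyrimidine. The X chromosome of *C. elegans* is also the target of dosage compensation, in which a condensin-containing complex binds X in XX animals and lowers transcription from it. In worms this complex is recruited at a limited number of X sites that carry a recurring motif, whose centre includes the letters GCGCAGGG, and it spreads from there along the chromosome.

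The letters CGCAGGG, part of that motif, were the only 7-mer called between X and autosomal summits far from gene starts, a call lost in the list of each replicate alone, and they lay in 9 of the 20 strongest X peaks. The sequences of 10 of the 24 strongest peaks, those which hold the 7 letters, are shown to display the match and its surroundings. Each is 31 bases read 5′ to 3′ from RefSeq WBcel235 on the strand that gives the match, peaks are numbered from the strongest by the authors' signal, and capitals mark GCGCAGGG or, where the letter before differs, CGCAGGG.
Peak 2, in an intron of Y41G9A.17, chrX:2997113-2997143, minus strand: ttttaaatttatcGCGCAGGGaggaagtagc
Peak 3, in an intron of mom-1, chrX:6296535-6296565, plus strand: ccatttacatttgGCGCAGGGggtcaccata
Peak 4, near F19H6.5, chrX:12363029-12363059, minus strand: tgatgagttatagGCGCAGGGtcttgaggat
Peak 9, near F22H10.2, chrX:16682162-16682192, minus strand: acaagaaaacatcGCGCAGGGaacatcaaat
Peak 10, near F55G7.5, chrX:11937528-11937558, plus strand: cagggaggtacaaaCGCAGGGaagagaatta
Peak 11, near T27A8.7, chrX:16056523-16056553, minus strand: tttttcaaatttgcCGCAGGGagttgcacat
Peak 12, near W02H3.3, chrX:11094115-11094145, minus strand: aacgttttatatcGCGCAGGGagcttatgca
Peak 14, near F20B6.9, chrX:4209256-4209286, minus strand: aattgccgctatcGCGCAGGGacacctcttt
Peak 15, near gtr-1, chrX:806661-806691, plus strand: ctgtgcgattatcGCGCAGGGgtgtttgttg
Peak 24, near xol-1, chrX:8036391-8036421, minus strand: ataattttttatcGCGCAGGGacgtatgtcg

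The whole summit windows of peaks 1 and 3, 50 bp on each side of the summit, contrast the strongest peak, in which the 7 letters were not found, with one that holds GCGCAGGG at 2 places. Both are given on the plus strand of WBcel235, with GCGCAGGG in capitals. The window of peak 1 also holds ATAAACA, a form of the forkhead core, left in lower case.
Peak 1, near ZK899.6, chrX:9465809-9465909: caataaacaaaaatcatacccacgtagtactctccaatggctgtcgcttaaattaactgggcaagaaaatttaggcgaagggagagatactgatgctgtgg
Peak 3, in an intron of mom-1, chrX:6296504-6296604: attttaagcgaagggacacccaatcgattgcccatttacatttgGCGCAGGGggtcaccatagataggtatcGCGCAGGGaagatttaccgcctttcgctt

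The peaks were denser on X than on the autosomes. Sequence over 1 kb from every gene start made up 71.1% of X (12.6 Mb) and held 25.3 peaks per Mb, against 15.8 per Mb in such autosomal sequence. The ratio was 1.60, with a range of 1.41 to 1.82 from the Wilson 95% interval of the X share of the peaks, which covers counting error only. Against single autosomes it ran from 1.47 to 1.82. Among the 2005 regions with the highest signal in either replicate's list, X held 25.8 per Mb against 15.9 in replicate 1 and 25.7 against 16.4 in replicate 2. In the pooled list of 30000 regions, which reaches far weaker regions, the densities were 318.0 and 285.1 per Mb, a ratio of 1.12. Within 1 kb of gene starts X held 27.3 thresholded peaks per Mb and the autosomes 23.9. On X, 69.5% of the peaks lay far from gene starts (65.1% to 73.5%), against 54.1% of autosomal peaks (51.6% to 56.5%). Sequence far from starts made up 71.1% of X and 64.0% of the autosomes.

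**Figure D1:**
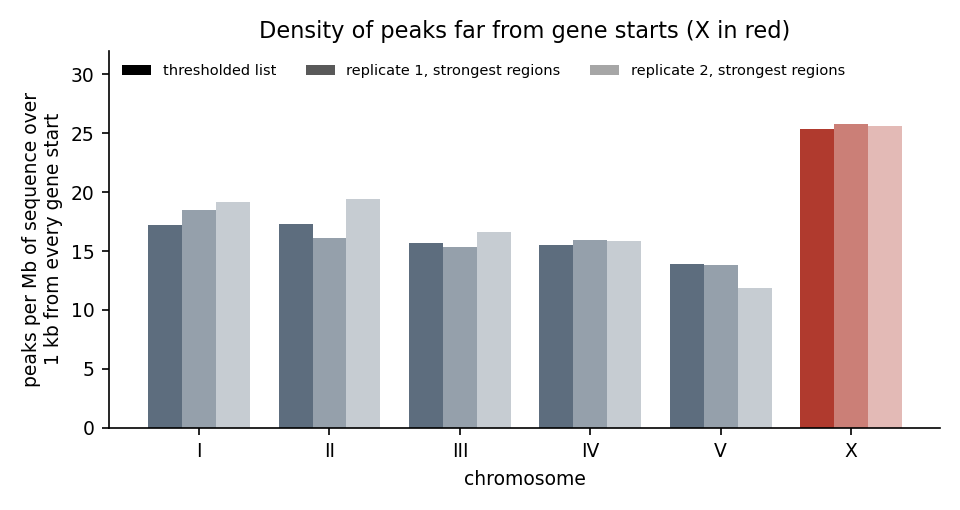
Thresholded peaks, and the strongest regions of each replicate, per Mb of sequence more than 1 kb from every gene start, by chromosome, with X in red. X stands at 25.3 to 25.8 per Mb in the 3 lists, above each autosome in each list.

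The nearest gene start was 1006 to 24192 bp from the summit, with a median of 3198 bp, and 82 peaks lay over 5 kb and 14 over 10 kb away. The autosomal median was 2842.5 bp. All sequence far from starts had a median of 2820 bp on X and 2642 bp on the autosomes. Summits fell upstream of the nearest start in 162 cases and downstream in 157. Between genes lay 185 peaks (58.0%, 52.5% to 63.3%), against 44.6% of X sequence far from starts. Introns held 111 peaks (34.8%, against 32.1% of the sequence), and coding exons held 16 (5.02%, against 19.1%). Of the autosomal peaks, 55.3% lay between genes, 39.1% in introns and 2.87% in coding exons. The shares of autosomal sequence far from starts were 35.8%, 37.8% and 22.9%. Soft-masked (repeat) bases made up 18.6% of the X summit windows on average, against 31.2% of X sequence far from starts. At the edge of the rule, the nearest members lay 1006 bp from the start of C04A11.5, 1009 bp from kin-2, which encodes the regulatory subunit of protein kinase A, and 1020 bp from R09F10.5. The X peaks next to be left out lay 970 bp from fbxb-58, 969 bp from ain-1 and 955 bp from igcm-2, and the first of these had a signal of 130.4.

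The authors' signal, whose scaling is not given in the sources used here, lay between 28.2 and 170.4 (median 42.5). Elsewhere the medians were 43.3 for X peaks near starts and 41.7 for autosomal peaks far from them. The X peaks far from starts thus spanned the strength of the whole list, with 6 among its 20 strongest. All 319 were overlapped by a region of the full list of replicate 1 and 317 by one of replicate 2. Regions among the 2005 strongest of both replicates overlapped 203 (63.6%, 58.2% to 68.7%), close to the 60.9% of all thresholded peaks, and 6 were overlapped by such regions of neither. Across the peaks the replicates' signals had a rank correlation (Spearman) of 0.39, and their log2 values a Pearson correlation of 0.39 (n = 317), as a description within a list already made from both. The 20 strongest ranked no lower than 404 in replicate 1 and 564 in replicate 2.

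Peak 1, between genes and 2514 bp downstream of the start of ZK899.6, had a signal of 170.4, with 108.0 in replicate 1 and 69.9 in replicate 2. Peak 2 (Y41G9A.17) had 163.3, with 131.9 and 49.6, and was the strongest region of all in replicate 1. Peak 3 lay in an intron of mom-1, the worm Porcupine needed for Wnt secretion, and had 143.9, with 100.9 and 51.9. All 3 ranked within the first 28 regions of both replicates. Next came the peaks near F19H6.5 (135.3), K02D3.1 (134.9) and sma-9 (118.2), the last a Schnurri homologue that acts in body size signalling. The peaks near tmem-184, in an intron of irk-3 (a gene of the inward rectifier potassium channel family; the nearest start is that of wdr-5.2), and near F22H10.2, F55G7.5, T27A8.7 and W02H3.3 ranged from 98.2 to 110.9. The other 8 of the 20, from 82.0 to 96.6, were nearest to cab-1, F20B6.9, gtr-1, dop-6, mig-15, rabr-1, prmn-1 and F54E4.3. Of these genes mig-15 encodes a Ste20-type kinase that acts in cell migration. Of the 20 strongest, 15 lay between genes, and introns held the rest.

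Among 8192 7-mers (strands merged), 1 differed between X and autosomal summits far from starts, which is 0.0122% of those tested (Fisher's exact test, two-sided, with Benjamini-Hochberg adjustment, threshold 0.05; 353 had an unadjusted p under 0.05). This was CGCAGGG, present within 50 bp of 12 of the 319 X summits (3.76%, 2.16% to 6.46%) and of 1 of the 836 autosomal summits (0.120%), with an adjusted p of 0.0136 by Fisher's exact test. Tiled windows of the same width held it at about equal rates on X (0.156%) and on the autosomes (0.149%). In windows centred 500 bp away from the same summits it was found in 0 on X and 1 on the autosomes, and the same Fisher's exact test called 0 of the 7-mers there (253 with an unadjusted p under 0.05). The call rested on few peaks. With the strongest regions of replicate 1 alone the counts were 11 and 4 (adjusted p = 0.20, Fisher's exact test), and with those of replicate 2 they were 9 and 2 (adjusted p = 0.24, exact). It was also lost among the 1002 strongest peaks of the list (10 and 1, adjusted p = 0.22, exact) and among summits between genes (7 and 0, adjusted p = 0.53, exact), while X stayed higher in each.

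The 9 other 7-mers with the smallest p did not pass. GCAGGGA (14 X and 6 autosomal summits) and GCGCAGG (11 and 3) overlap the called letters, and each had an adjusted p of 0.13 by Fisher's exact test. AAGGGGC (11 and 3, adjusted p = 0.13), ATCGCGC and GTTCACA (9 and 2 each, adjusted p = 0.22, exact) were also more frequent on X. ATCGCGC overlaps the called letters in the sequences of peaks 2, 9, 12, 14, 15 and 24 printed above. The GA repeats AGAGAAA (9.09% of X and 19.5% of autosomal summits, adjusted p = 0.052, exact), AAAGAGA (6.58% and 15.7%, 0.065), AGAGAGC (1.57% and 6.94%, 0.14) and AGAGAGA (7.84% and 16.0%, 0.19) were less frequent on X. In windows of 100 bp on each side AGAGAGA passed, at 16.3% of X and 28.0% of autosomal summits (adjusted p = 0.022, Fisher's exact test).

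Over the whole width of the peak, CGCAGGG was present in 17 of the 319 X peaks (5.33%), in 5 of the 140 X peaks near starts, in 7 of the 836 autosomal peaks far from starts (0.837%) and in 14 of the 710 autosomal peaks near starts. It lay in 9 of the 20 strongest X peaks (45.0%, 25.8% to 65.8%) and in 8 of the other 299 (2.68%, 1.36% to 5.19%). Of the 50 strongest X peaks far from starts 10 held it, and of the 50 strongest autosomal ones 0. The median signal was 92.0 with the letters and 42.2 without them (n = 302). In replicate 1 these medians were 46.4 and 26.2, and in replicate 2 they were 36.7 and 17.6. The ranges overlapped widely, since peaks with the letters ran from 29.4 to 163.3 and the strongest peak of all, shown above, was without them. Of the 17, 15 were covered by strong regions of both replicates. Peaks 12 and 78, which lie side by side near W02H3.3, share 1 region in each replicate and so 1 value, and peaks 14 and 295 are also neighbours.

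**Figure D2:**
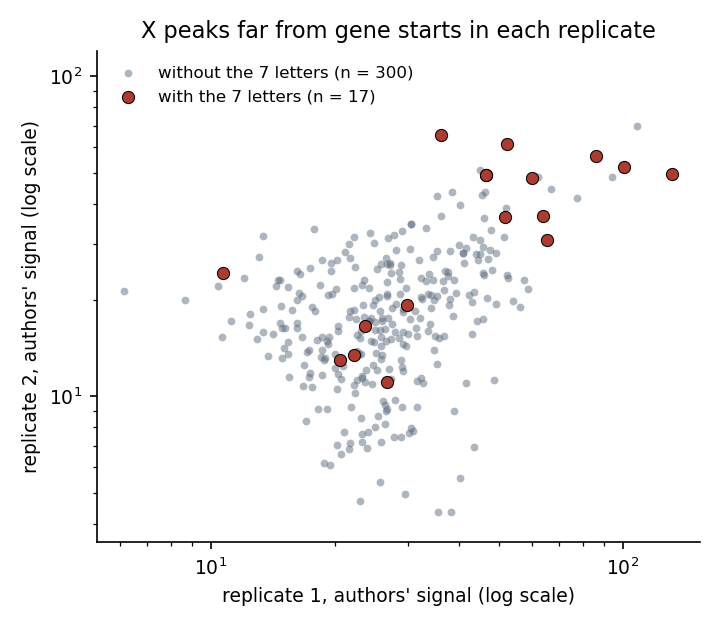
Authors' signal of each X peak far from gene starts in replicate 1 (x axis) and replicate 2 (y axis), both on log scales, for the 317 peaks found in both, with those holding the 7 letters in red. Red points have medians of 46.4 and 36.7 and are mixed with the other peaks at the lower end.

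The letters sat near the summit. Of the 17 X peaks, 12 had them centred within 50 bp of it and 15 within 100 bp, with peak 3 at 2 bp and peak 9 at 6 bp as the closest. With a single match counted per peak, the full GCGCAGGG was present in 14 of the 17, and 9 of those matches had TC directly before them. The other copy in peak 3, shown above, was not counted and also has TC before it. The letter after the counted match was A in 12, G in 3 and T in 2. Besides those printed above, the matching peaks were nearest to W02H3.3 again, col-185 (a collagen gene), sto-6 (a stomatin family gene), svh-5, stn-2 (a syntrophin gene), F20B6.9 again and C41A3.2. Between genes lay 11 of the 17.

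**Figure D3:**
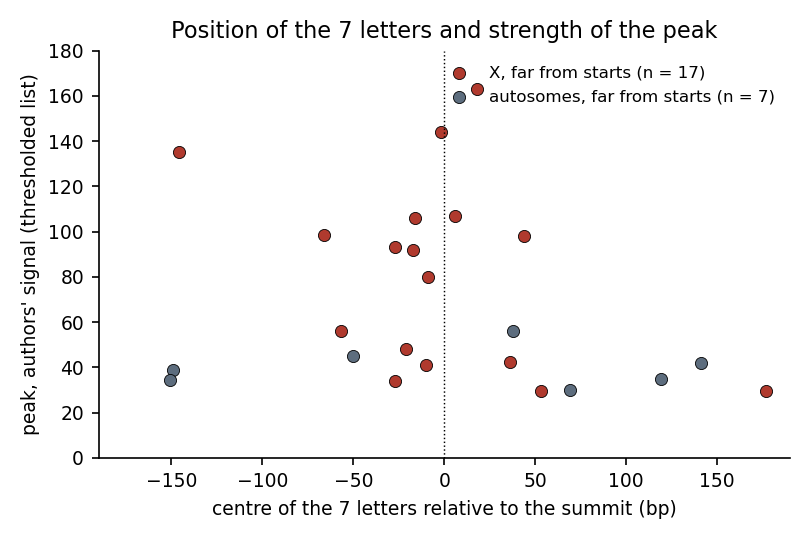
Distance in bp from the summit to the centre of the 7 letters (x axis) and the authors' signal of the peak (y axis) for peaks far from gene starts that hold them, 17 on X and 7 on the autosomes. The autosomal peaks all lie below a signal of 60, and the 10 X peaks above it have the letters within 66 bp of the summit except peak 4, at 146 bp.

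The reverse view asked how many of the matches in the genome lay inside a peak. X has 81 sites of GCGCAGGG, of which 20 lay in a thresholded peak (24.7%, Wilson interval 16.6% to 35.1%), 17 of those in peaks far from starts. The autosomes have 233, of which 3 did (1.29%, 0.439% to 3.72%), while peaks covered 0.935% of X and 0.693% of the autosomes. The strongest regions of replicate 1 held 21 X and 2 autosomal sites, and those of replicate 2 held 21 and 3. With a C before the 8 letters, 15 of 33 X sites lay in a peak (45.5%, 29.8% to 62.0%) and 0 of 44 autosomal sites. A count of 0 allows an autosomal share of up to 6.82% by the rule of 3 counts and of up to 8.03% by the Wilson interval. Without that C the counts were 5 of 48 on X (10.4%) and 3 of 189 on the autosomes (1.59%). All 30000 regions of the pooled list together, which cover 11.5% of X and 10.4% of the autosomes, held 33 of the 81 X sites (40.7%) and 46 of the 233 autosomal ones (19.7%). The 9-letter form was chosen after the values were seen. GAGACGC, a 7-mer counted for comparison, lay in a peak at 51 of its 1017 X sites (5.01%) and at 319 of its 7251 autosomal sites.

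**Figure D4:**
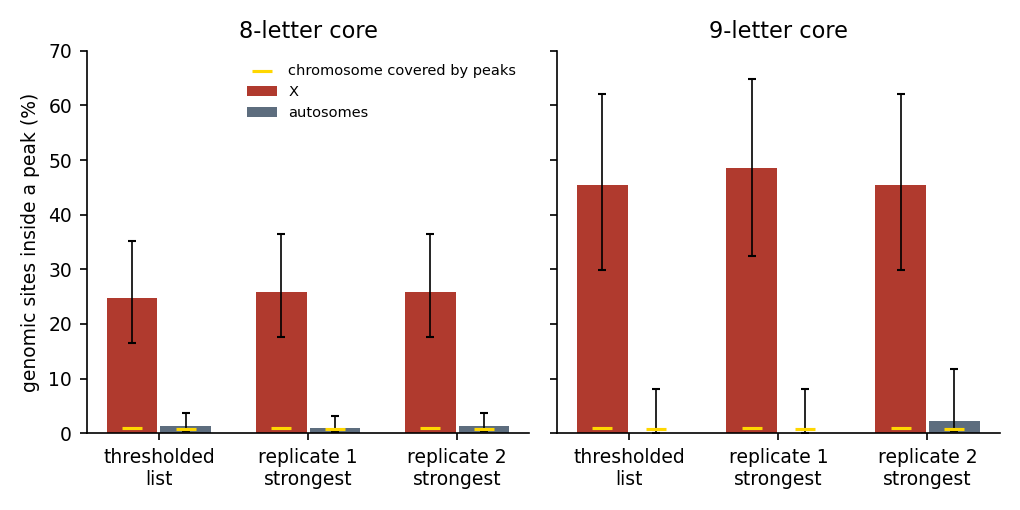
Percent of genomic sites of the 8-letter and 9-letter core that lie inside a peak of each list, on X (red) and the autosomes (grey), with Wilson 95% intervals and with the percent of sequence that the peaks cover as a yellow mark. The X bars stand between 24.7% and 48.5%, and the autosomal bars at 0 to 2.27%.

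Near matches were counted together with exact ones. Exact copies of GCGCAGGG, included in the counts below, were within 50 bp of 10 X summits far from starts and 2 near starts. Among autosomal summits far from starts there were 0. GCGCAGGG with at most 1 letter replaced was present within 50 bp of 24 X summits far from starts (7.52%, 5.11% to 11.0%), 8 of them among the 20 strongest. Among X summits far from starts other than the 20 strongest, 16 held it (5.35%, 3.32% to 8.51%). Of the 140 X summits near starts 10 held it (7.14%, 3.93% to 12.6%). Of the autosomal summits far from starts 31 held it (3.71%, 2.62% to 5.22%). Tiled windows far from starts held it at 1.28% on X and 1.27% on the autosomes. Peak 1 is among those with such a near match.

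The forkhead core was rare at the X summits. Any of the 4 forms of RTAAAYA lay within 50 bp of 12 summits (3.76%, 2.16% to 6.46%). The windows 500 bp away held one in 45 cases (14.1%), and tiled X windows far from starts in 10.6%. Windows 500 bp towards lower coordinates held one in 35 cases, and those 1000 bp towards higher coordinates in 33. Peaks 1 and 2 were among the 12. Over about the whole peak 70 X peaks held a form, 6 of the 20 strongest among them, against 136 flanking windows of that width. Autosomal summits far from starts held one less often than their flanks too, 53 (6.34%) against 88 (10.5%). There GTAAACA (13 summits and 9 flanks) and GTAAATA (15 and 10) went the other way. X summits near starts held a form in 9 cases (6.43%). On X none of the 4 forms passed the exact McNemar test over all 7-mers. ATAAATA, the most frequent, was in 6 X summits and 25 X flanks (adjusted p = 0.077, exact). The X summits were richer in G and C than the flanks, at 42.7% ± 7.79 (SD over windows, n = 319) against 33.0% ± 8.47. Autosomal summits far from starts stood at 42.3% against 33.5% (n = 836). The part of base composition in these counts was not tested. Of 8192 7-mers, 31 (0.378%) were more frequent at the X summits and 46 (0.562%) less frequent by the exact McNemar test with Benjamini-Hochberg adjustment. In the larger set of 836 autosomal summits, 337 were called more frequent than in flanks and 290 less frequent. Of the 46 on X, 45 had 6 or 7 A and T letters, and 26 of the 31 consisted of purines or of pyrimidines only. ATTTTTA was in 4 summits and 48 flanks (adjusted p = 3.0e-07, exact) and TTAAAAA in 8 and 56. The next by p were also less frequent at the summits, namely AAAAATT (22 summits and 71 flanks), AAAAAAT (30 and 83), TTTAAAA (10 and 51), AAAAATA (20 and 70), AAAATAA (15 and 60), AAAATAT (10 and 48), TTCAAAA (16 and 58) and AAATATT (6 and 36). GCAGGGA was in 14 summits and 0 flanks (adjusted p = 0.017, exact), and CGCAGGG in 12 and 0, with an adjusted p of 0.05 (exact) that did not fall below the threshold.

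The peaks were nearest to, or inside, 254 of 2731 protein-coding genes of X (9.30%), and 190 of these had 1 peak. Of the X-linked genes of sex determination and dosage compensation, 2 of 6 had a peak. At xol-1, the switch gene that sets sexual fate and the level of dosage compensation, peak 24 lay between genes 4900 bp upstream of the start. It had a signal of 79.9, with 51.6 in replicate 1 and 36.3 in replicate 2, and held the full core 9 bp from its summit. At fox-1, an X signal element whose RNA-binding protein represses xol-1, there were 2 intronic peaks, the stronger with a signal of 54.6 (43.1 and 15.7 in the replicates).

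Of 26 X-linked nuclear hormone receptor genes 9 had a peak (34.6%), beside 9.30% of all X genes, with gene length not taken into account. These were nhr-28, nhr-3, nhr-17, nhr-40, nhr-1, nhr-71, daf-12, nhr-14 and fax-1. In replicates 1 and 2 the peak in an intron of daf-12, the receptor for dafachronic acids, had signals of 40.2 and 5.56, that of nhr-14 had 38.3 and 4.37, and that of fax-1 had 26.7 and 9.11. A list of 41 X-linked genes for channels and receptors of excitable cells held the twk, acr, glr, gar and lgc families and a few single channel genes, and 6 of them had one (14.6%). These were the ligand-gated channel genes lgc-47 (signal 73.2) and lgc-53 (35.3), the acetylcholine receptor subunit gene acr-2 (68.6), the potassium channel genes twk-26 (62.3) and twk-17 (32.8), and unc-2, a voltage-gated calcium channel subunit gene (42.6). Other channel and receptor families, such as those of irk-3, dop-6 and dop-1, were not in that list. The innexins unc-7 and unc-9, which form gap junctions, had intronic peaks of 60.7 and 53.2 and were 2 of 6. Of 11 guidance and matrix genes 2 did, the syndecan gene sdn-1 (71.5) and the Robo receptor gene sax-3 (53.8). Only lim-4 of 26 homeobox genes and nlp-64 of 34 neuropeptide and insulin genes had one, at 42.2 and 37.3. These shares are descriptions with no test.

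Genes with 3 or more peaks numbered 19. nhr-28 and ace-1, an acetylcholinesterase gene, had 9 each, and sur-7 had 4, all of them within 1 dense block. The 4 peaks of lin-14, the heterochronic timing gene, lay inside the gene (31.0 to 55.2), as did those of F54G2.1 (30.4 to 57.0). The gene mdl-1, which encodes a Mad-like bHLH factor, had 4 peaks outside it (28.3 to 64.8), and pkc-2, a protein kinase C gene, had 4 (37.2 to 50.3). The others, with 3 each, were cab-1, nhr-3, nhr-40, nlf-1, svh-5, unc-9, ivns-1, got-2.2, nhr-1, sto-6, dop-1 and AH9.6.

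The dense block spanned 33859 bp (chrX:16344441-16378299) at taf-3, nhr-28, ace-1 and sur-7 and held 25 thresholded peaks, 21 of them far from starts. Replicate 1 had 17.1 regions per 10 kb there and replicate 2 had 18.3, against 3.26 and 3.27 over the whole of X. Signals of the 21 peaks lay between 29.1 and 82.0 (median 45.0), and 0 of them held CGCAGGG. Without this block and an autosomal one of the same kind, 298 peaks remained, the density ratio was 1.53, and CGCAGGG was at 12 X and 1 autosomal summits (adjusted p = 0.0093, Fisher's exact test).

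Some of the peaks lay at non-coding genes. A tRNA gene was within 200 bp of 10 X summits (3.13%), 4 of them inside the gene, against 1 autosomal summit far from starts (0.120%) and 0.733% of X sequence far from starts. Among summits whose nearest non-coding gene was a tRNA gene, the strongest lay in WBGene00023042 (signal 73.0). Genes annotated as ncRNA were within 200 bp of 71 (22.3%), against 14.6% of autosomal summits and 6.36% of the X sequence. The microRNA gene cel-mir-56 was 110 bp from a summit (30.3), linc-166 was 118 bp from one (29.7) and the piRNA gene 21ur-14233 was 119 bp from one (28.9). Each was the 1 X summit of its kind (0.313%), against 0.359% of autosomal summits for microRNA genes, 1.08% for lincRNA genes and 1.91% for piRNA genes. Of X sequence far from starts, 0.202% lay within 200 bp of a microRNA gene, 0.401% of a lincRNA gene and 0.357% of a piRNA gene. A snoRNA gene was within 200 bp of 0 X summits and 5 autosomal ones (0.598%), beside 0.103% of the X sequence. The share of autosomal sequence near such genes was not counted for any of these kinds. The differences between X and autosomal summits therefore cannot be told apart from differences in where the genes lie.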

How the data were processed

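ChIP-seq peak lists of both replicates, the pooled replicates and a thresholded list (irreproducible discovery rate) were used as deposited on ce11. Column 7 was taken as the signal per peak given by the authors' caller, following the narrowPeak format. The sources used here do not give caller, aligner, threshold or depth, so precision beyond peak counts is unknown. Chromosome lengths matched WBcel235. Genes came from Ensembl release 115, sequences from RefSeq WBcel235. Members, gene lists, motifs and tests were chosen with earlier results of these data known. Named are genes at the 20 strongest peaks, at the 3 peaks on each side of 1 kb, or with 3 or more peaks. Up to 6 genes per list are named, but all 9 nuclear receptors. Also named are non-coding genes within 200 bp (of ncRNA none) and the 10 7-mers with the smallest p per test. Of tRNA genes only the strongest is named, among those that were the nearest non-coding gene to a summit. 7-mers were sought on both strands within 50 bp of summits and of points 500 bp higher. Exact McNemar and Fisher tests (scipy 1.17.1) were Benjamini-Hochberg adjusted and tested on simulated data. The simulated windows all had the same base composition, and the added 7-mers were in more of them than hold CGCAGGG here. That check does not cover a shift in base composition or counts this small. Intervals of shares are Wilson 95% and cover counting error only. Both replicates share 1 group, so p-values compare peaks, not animals. Alternatives varied the list, distance, starts, windows and loci; block removal, whole-peak windows and summits between genes were added after seeing the data.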

Additional observations from a re-analysis of the deposited data

How the results depend on the processing

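X peaks far from starts numbered 168 among the 1002 strongest peaks of the list and 197 when starts of genes of every biotype counted. Without replicate 1 or 2 there were 323 to 325. The share between genes became 65.2% with transcript starts and otherwise stayed within its interval, as did the density ratio under every setting tried (1.46 to 1.69). Coverage by both replicates was 99.4% with all regions and 92.9% among the 1002 strongest.

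The 7-mers called against flanks (77) numbered 12 among the 1002 strongest, 50 to 63 without replicate 1 or 2, 127 at 500 bp, 30 at 2 kb, 21 with starts of every biotype, 8 and 259 in windows of 25 and 100 bp on each side and 396 over about the whole peak. The 1 called between X and autosomes became 0 among the 1002 strongest, 0 and 0 without replicate 1 or 2, 0 at 2 kb, 0 in windows of 25 bp and 0 between genes by Fisher's exact test, with 248, 305, 366, 254, 184 and 268 at an unadjusted p under 0.05. It became 3 with 1 summit per locus, 13 in windows of 100 bp and 18 over about the whole peak. CGCAGGG was more frequent on X under each of these settings, by 2.51 to 5.71 percentage points. The cause of these changes was not tested. The replicates could not enter a fit as a block, because both belong to 1 group. The unknown depth and the few peaks with the letters limit all of these counts.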
